A study of Mus musculus with 9 samples.

Results

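The transcription factor AP-1 and its companions among the immediate early genes were followed in mouse cultures undergoing conversion from embryonic fibroblasts (MEFs) to induced neurons. The 10 genes are Fos, Fosb, Fosl1, Fosl2, Jun, Junb, Jund, Egr1, Atf3 and Ier2. They were chosen by symbol, and all 10 were found among the 30406 genes that the 9 libraries share. The cultures were wild type (WT), Per1-/- (allele Per1tm1Drw) or Per2-/- (allele Per2tm1Drw), sampled on days 4, 7 and 10 after doxycycline, with 1 library for each genotype and day. Every culture carried the same agents: Tet-O lentiviruses for neuronal reprogramming factors, Brn2 and Myt1l among them, a virus for the transactivator M2rtTA, doxycycline, and a serum-free N3 medium with basic FGF. No library without these factors was analysed here, so no value below separates the factors from the medium. Per the study's methods, the MEFs came from mid-gestation embryos without head and heart, embryos were pooled for each dish, cells were used at passage 1 and the sex of the embryos was not determined.

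AP-1 is a pair of leucine zipper proteins, either 2 proteins of the JUN family or 1 of the JUN and 1 of the FOS family, that binds DNA at short palindromes. FOS proteins need a JUN partner, whereas JUN proteins also pair among themselves or with relatives such as ATF3. Immediate early genes are transcribed within minutes of a growth factor, a stress or, in neurons, a depolarising stimulus, without new protein synthesis, and several of them are also known to be induced when tissue is dissociated into single cells.

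After filtering, 74835 cells were kept, 6047 to 10663 in each library, and the total count of unique molecular identifiers (UMI, 1 for each captured RNA molecule) was 126625215 to 353198559 per library. Cells were grouped by their other genes: the 10 genes and the lists used below were kept out of clustering, so no group was defined by them. The largest classes were fibroblast-like (48003 cells), neuron-like (8198 cells) and macrophage-like (6473 cells), followed by Schwann-like (2570 cells), skeletal muscle-like (2310 cells), astrocyte-like (1137 cells) and mesothelial-like cells (569 cells), and 5575 cells stayed unnamed. The labels call all cells induced neurons. Neuron markers summed to 4181 to 9281 CPM (UMI of the gene per 1000000 UMI) in neuron-like cells and to 123 to 258 CPM in fibroblast-like cells, while fibroblast markers summed to 506 to 1718 CPM in neuron-like and to 19084 to 37822 CPM in fibroblast-like cells. Macrophage markers summed to 22927 to 30600 CPM in macrophage-like cells and stayed at or under 199 CPM in neuron-like and fibroblast-like cells. The library of WT on day 10 stood apart, with 55.4% of its barcodes past the limits on UMI and mitochondrial share against 86.1% to 94.5% elsewhere, and with 34.4% of its cells unnamed. Days 4 and 7 were processed with another software version and gene table than day 10, so these and day 10 cannot be told apart. Between any pair of libraries 10 to 30 cell barcodes were shared. UMI were added up over all cells of 1 class and 1 library, so that the library is the unit of every test below. Pooled ratios, ratios within a day and shares of cells are descriptions over UMI or cells. Levels in CPM are given for 1 gene across classes and not between genes, since 3′ counting gives no value per length.

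The sequence just upstream of the start site is shown for 5 of the genes, because the members differ there in the short letters that AP-1 and its relatives read. Sequences and start sites are those of RefSeq on GRCm38.p6, 150 bases ending at the base before the start, written 5′ to 3′ in the direction of transcription. RefSeq windows were matched for 7 of the 10 genes (Fosl1, Egr1 and Ier2 were not matched). The windows are Fos at chr12:85473740-85473889 (plus strand), Fosb at chr7:19310046-19310195 (minus strand), Junb at chr8:84978749-84978898 (minus strand), Jun at chr4:95052223-95052372 (minus strand) and Atf3 at chr1:191183334-191183483 (minus strand). Capitals mark TGACG or its reverse complement CGTCA, the core of the cAMP response element (CRE), the AP-1-like letters TGACATCA in Jun, and the TATAAA box in Fos.
Fos: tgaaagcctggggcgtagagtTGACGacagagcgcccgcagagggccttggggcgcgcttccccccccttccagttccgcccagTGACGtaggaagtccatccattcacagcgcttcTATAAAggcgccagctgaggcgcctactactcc
Fosb: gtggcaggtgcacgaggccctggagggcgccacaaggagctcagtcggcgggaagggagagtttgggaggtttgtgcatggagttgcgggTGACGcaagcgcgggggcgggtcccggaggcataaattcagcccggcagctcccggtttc
Junb: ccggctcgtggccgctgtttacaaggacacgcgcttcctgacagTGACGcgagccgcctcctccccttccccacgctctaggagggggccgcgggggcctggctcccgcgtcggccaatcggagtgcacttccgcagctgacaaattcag
Jun: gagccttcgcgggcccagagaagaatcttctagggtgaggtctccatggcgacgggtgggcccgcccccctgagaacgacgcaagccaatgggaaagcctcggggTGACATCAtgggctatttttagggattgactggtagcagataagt
Atf3: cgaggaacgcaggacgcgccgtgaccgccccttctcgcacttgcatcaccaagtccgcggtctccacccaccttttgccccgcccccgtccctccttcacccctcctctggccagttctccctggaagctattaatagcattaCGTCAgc

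The motifs searched were TGACG, the AP-1 palindrome TGACTCA, the full CRE TGACGTCA (which contains TGACG) and TGACATCA on both strands, and TATAAA on the strand of the gene. Counted back from the start site, the Fos window held TGACG at -129 to -125 and -66 to -62 and TATAAA at -33 to -28. The Fosb window held TGACG at -60 to -56 and the Junb window at -106 to -102. The Atf3 window held the core on the other strand at -7 to -3, next to the start of this RefSeq transcript, which lies inside the longer Atf3 gene span. The Fosl2 window also lies inside its gene span and the Jund window ends well upstream of its gene start, so for these 3 genes the windows belong to another start than that of the span printed with the gene. The Jun window held no TGACG but TGACATCA at -45 to -38, letters that were chosen after this window had been read. None of these letters was found in the windows of Fosl2 and Jund, and TGACTCA was in none of the 7. Over the same 150 bases upstream of all 32851 RefSeq starts, TGACG was in 13.3%, TGACTCA in 2.84%, TGACGTCA in 1.36%, TGACATCA in 2.32% and TATAAA in 4.84%. A match describes letters and is not a bound site.

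Among the FOS family, Fos, which lies at chromosome 12, 85473890 to 85477273 on the plus strand (GENCODE M21, GRCm38), differed most plainly between classes. In macrophage-like cells Fos was 111 CPM in the lowest library, 142 in the median and 180 in the highest. In fibroblast-like cells the same values were 35.3, 53 and 64.3 CPM, and in neuron-like cells 4.08, 6.04 and 14.8 CPM. The 3 ranges did not overlap, with neuron-like cells lowest in every library. Schwann-like cells reached the level of macrophage-like cells, with a median of 168 CPM (63.8 to 232), and skeletal muscle-like cells were as low as neuron-like cells, with a median of 7.1 CPM (2.28 to 19). Ordered by median, Schwann-like, macrophage-like, astrocyte-like (111 CPM), mesothelial-like (70.2 CPM) and fibroblast-like cells each overlapped their neighbour, and the only neighbours that did not were fibroblast-like and skeletal muscle-like cells. In edgeR's quasi-likelihood test on the summed counts with the library as a block, Fos was higher in macrophage-like than fibroblast-like cells by 1.71 ± 0.16 on the log2 scale (SE, 9 libraries, Benjamini-Hochberg adjusted p = 4.85e-09) and lower in neuron-like than fibroblast-like cells by a difference of -3.35 ± 0.19 (adjusted p = 1.22e-12). The difference of neuron-like from macrophage-like cells was -5.06 ± 0.20. The neuron-like level depended on the clustering: at Leiden resolution 2 in place of 1 its mean was 14 CPM in place of 6.78 CPM. At resolution 2 the class took in a mixed cluster of 1959 cells, of which 22.8% were scored as doublets and left out. That cluster had 13 fibroblast markers found in most of its cells. The neuron-like clusters of resolution 1 had at most 4 such markers and 1.68% doublets. The part of the mixed cluster in the shift was not tested.

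**Figure D1:**
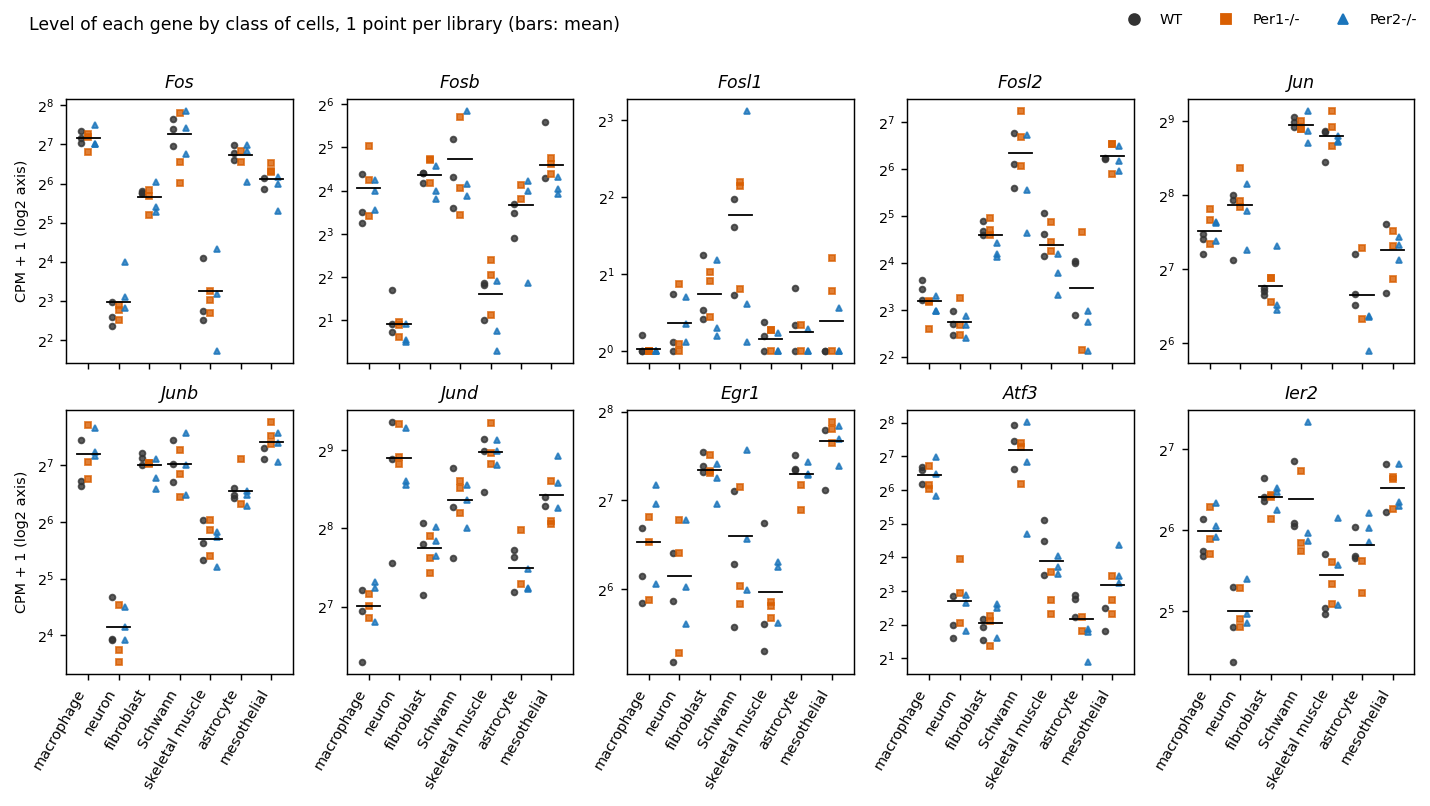
Level of each of the 10 genes in 7 cell classes, in CPM plus 1 on a log axis, with 1 point for each library and a bar at the mean. Fos is at 111 CPM or more in every macrophage-like sum and at 14.8 CPM or less in every neuron-like sum, and Jun and Jund show no such drop in neuron-like cells.

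Fosb, a close relative of Fos on chromosome 7 (19302696 to 19310051, minus strand), shared the low level in neuron-like cells and not the high level in macrophage-like cells. Its level was 0.417 CPM in the lowest, 0.863 in the median and 2.26 CPM in the highest neuron-like library, against 13.1, 20.1 and 25.6 CPM in fibroblast-like and 8.58, 15 and 31.6 CPM in macrophage-like cells. The neuron-like range lay below both others, which overlapped. The log2 difference of neuron-like from fibroblast-like cells was -5.0 ± 0.29 (edgeR, adjusted p = 1.64e-12), the largest difference of the 10 genes in that comparison, and that of macrophage-like from fibroblast-like cells was -0.15 ± 0.21 and did not pass (adjusted p = 0.525). At Leiden resolution 2 the neuron-like mean of Fosb was 3.19 CPM in place of 0.882 CPM. Fosl2, the FOS relative FRA-2 (chromosome 5, 32135801 to 32157842, plus strand), ran from 16.5 to 30.2 CPM in fibroblast-like cells (median 23.4), from 5.1 to 11.5 CPM in macrophage-like cells (median 8.18) and from 4.32 to 8.61 CPM in neuron-like cells (median 5.46). Fibroblast-like cells were above both other classes in all 9 libraries, by log2 differences of -1.33 ± 0.13 for macrophage-like (edgeR, adjusted p = 4.72e-09) and -2.49 ± 0.14 for neuron-like cells (edgeR, adjusted p = 6.2e-13). Higher still were mesothelial-like (median 73.8 CPM, 58.2 to 91.9) and Schwann-like cells (median 68.3 CPM, 23.8 to 150). Fosl1, which encodes FRA-1 (chromosome 19, 5447547 to 5455946, plus strand), was scarce in all 3 classes: 795 UMI in all fibroblast-like, 28 in all neuron-like and 1 in all macrophage-like cells. Its pooled CPM in macrophage-like cells was 0.00957 of that in fibroblast-like cells (95% exact interval 0.000242 to 0.0535), and in neuron-like cells 0.348 (0.23 to 0.508), intervals that cover counting error only. The fibroblast-like levels of Fosl1 ran from 0.144 to 1.38 CPM.

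The JUN family followed another order. Jun (chromosome 4, 95049034 to 95052222, minus strand), one of the partners that FOS proteins can pair with, had its highest levels in Schwann-like cells (417, 484 and 561 CPM in the lowest, median and highest library) and skeletal muscle-like cells (348, 445 and 562 CPM). Neuron-like cells followed at 138, 241 and 328 CPM, then macrophage-like cells at 147, 177 and 224 CPM and fibroblast-like cells at 86.5, 103 and 158 CPM. The step from skeletal muscle-like to neuron-like cells was the only one between neighbours without overlap. This order is that of CPM on library totals. The order of neuron-like and macrophage-like cells was the opposite in the edgeR test, as given below. Jun was higher than in fibroblast-like cells in macrophage-like cells, by 0.96 ± 0.13 (edgeR, log2, adjusted p = 1.22e-06), and in neuron-like cells, by 0.64 ± 0.13 (adjusted p = 0.000191). Jund (chromosome 8, 70698949 to 70700616, plus strand), the JUN protein known to be present in resting cells, was 77.2, 128 and 158 CPM in macrophage-like cells, 141, 221 and 266 CPM in fibroblast-like cells and 187, 471 and 655 CPM in neuron-like cells. Skeletal muscle-like cells had a like level, with a median of 505 CPM (353 to 647). The neuron-like and macrophage-like ranges of Jund did not overlap (log2 difference 1.20 ± 0.10, edgeR, adjusted p = 2.41e-10), and Jund was also higher in neuron-like than fibroblast-like cells (0.65 ± 0.10, adjusted p = 2.88e-06) and lower in macrophage-like than fibroblast-like cells (-0.55 ± 0.10, adjusted p = 2.12e-05). In the 6 classes with a sum for the WT library of day 10, that library had the lowest Jund level of the class in 6 of 6.

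Junb (chromosome 8, 84974484 to 84978718, minus strand), which is known to weaken JUN's activity on many sites, behaved like Fos in neuron-like cells. Its level there was 10.5, 14.3 and 24.4 CPM in the lowest, median and highest library, against 95, 131 and 148 CPM in fibroblast-like and 98.8, 142 and 208 CPM in macrophage-like cells. No neuron-like sum reached a sum of the other classes, and skeletal muscle-like cells came next at a median of 52.5 CPM (36.1 to 64.9), above neuron-like cells without overlap. Junb was lower in neuron-like than fibroblast-like cells by a log2 difference of -3.35 ± 0.19 (edgeR, adjusted p = 9.97e-13) and higher in macrophage-like than fibroblast-like cells by 0.40 ± 0.17 (adjusted p = 0.036), a call that was lost without Per1-/- day 7, Per2-/- day 7 or Per2-/- day 10. Within the JUN family the neuron-like cells held more Jund and less Junb in CPM than the fibroblast-like cells of the same library in 9 of 9 libraries, and more Jun in 8 of 9, the exception being Per2-/- day 10 (152 CPM of Jun in neuron-like and 158 CPM in fibroblast-like cells). These counts rest on library totals and were not made with edgeR's TMM factors. The mean log2 factor was 0.37 in neuron-like and -0.09 in fibroblast-like cells, so the counts for Jund and Jun can depend on the scale. At Leiden resolution 2, where the class includes the mixed cluster named above, the neuron-like mean of Junb was 34.8 CPM in place of 16.7 CPM.

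Of the other immediate early genes, Egr1, a zinc finger factor outside AP-1 (chromosome 18, 34859823 to 34864984, plus strand), was 123, 160 and 186 CPM in the lowest, median and highest fibroblast-like library, 56.6, 91.4 and 143 CPM in macrophage-like and 35.2, 64.1 and 109 CPM in neuron-like cells. Neuron-like and fibroblast-like ranges did not overlap, and the macrophage-like range overlapped both. The log2 difference from fibroblast-like cells was -1.70 ± 0.24 in neuron-like (edgeR, adjusted p = 1.59e-06) and -0.61 ± 0.23 in macrophage-like cells (adjusted p = 0.0214), and the second did not pass without WT day 4 or WT day 7. Ier2 (chromosome 8, 84661331 to 84662852, minus strand), an early response gene outside AP-1, was 69.2 to 98.9 CPM in fibroblast-like (median 83.9), 50.4 to 80.1 CPM in macrophage-like (median 59.4) and 19.6 to 40.9 CPM in neuron-like cells (median 28.9). Neuron-like cells were below both classes without overlap (-1.90 ± 0.13 from fibroblast-like cells, edgeR, adjusted p = 2.22e-11), and the difference between macrophage-like and fibroblast-like cells, -0.22 ± 0.12, did not pass (adjusted p = 0.102), though it did without Per1-/- day 7 and on library totals.

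Atf3 (chromosome 1, 191170296 to 191218039, minus strand), a stress-induced partner of JUN, was a gene of macrophage-like and Schwann-like cells. Its level was 55.6, 88.5 and 126 CPM in the lowest, median and highest macrophage-like library and 25, 153 and 258 CPM in Schwann-like cells. In fibroblast-like cells it was 1.56, 3.32 and 5.06 CPM and in neuron-like cells 2.01, 5.21 and 14.5 CPM. Macrophage-like cells lay above both without overlap, by 4.99 ± 0.22 on the log2 scale from fibroblast-like cells, or 31.9-fold (edgeR, adjusted p = 1.45e-14), and neuron-like cells lay -4.84 ± 0.24 from macrophage-like cells (adjusted p = 7.09e-14). Neuron-like and fibroblast-like cells differed by 0.15 ± 0.23 (adjusted p = 0.55).

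**Figure D2:**
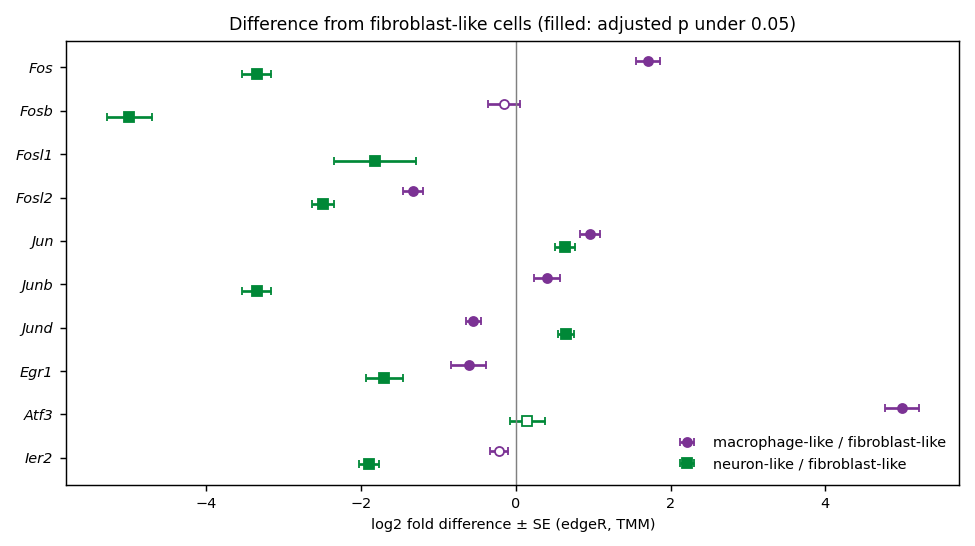
Fitted log2 differences of macrophage-like and neuron-like from fibroblast-like cells for the members, with bars of 1 SE (edgeR, 9 libraries; the fitted macrophage-like value of Fosl1, which rests on 1 UMI, is left out). Fos and Atf3 are above 0 in macrophage-like cells, and in neuron-like cells Jun and Jund alone of the members passing the test are above 0, while Fos, Fosb, Fosl2, Junb, Egr1 and Ier2 are below.

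In counts, 8 of 10 members passed at an adjusted p under 0.05 between macrophage-like and fibroblast-like cells (4 higher, 4 lower), where 82.7% of the 16476 genes tested passed. Between neuron-like and fibroblast-like cells 9 of 10 passed (2 higher, 7 lower), where 79.1% of genes did, and between neuron-like and macrophage-like cells 10 of 10 passed (2 higher, 8 lower), where 85.6% did. These shares are near those of all genes, so that the sizes and directions carry the description and the counts do not. The median log2 difference of all genes was -0.21, -0.05 and 0.16 in the 3 comparisons. The scale matters between such different cells: with library totals in place of edgeR's TMM factors these medians were -0.41, 0.41 and 0.82. One direction flipped, that of Jun in neuron-like against macrophage-like cells, which was -0.32 ± 0.13 with TMM (edgeR, adjusted p = 0.0335) and 0.34 with totals (adjusted p = 0.022). Relative to the median gene it was -0.47 on both scales. On totals Junb no longer passed between macrophage-like and fibroblast-like cells (0.19, edgeR, adjusted p = 0.248) nor Egr1 between neuron-like and macrophage-like cells (-0.42, adjusted p = 0.0971), while Ier2 passed between macrophage-like and fibroblast-like cells (-0.43, adjusted p = 0.00203) and Atf3 between neuron-like and fibroblast-like cells (0.62, adjusted p = 0.0235).

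The level of a class also hides its clusters. The neuron-like class is made of 3 clusters, an early one found mostly on day 4 and led by Lhx3, Miat and Islr2, one with at least 20 cells in all 9 libraries and led by Vwc2l, Nts and Scg3, and a late one with so many cells on days 7 and 10 alone, led by Snhg11, Caly and Stmn3. In this order, over 8, 9 and 6 libraries, Jun averaged 300, 247 and 135 CPM over libraries, and Jund 587, 481 and 297 CPM. Egr1 averaged 75, 77.8 and 36.8 CPM, whereas Fos averaged 4.26, 4.34 and 11.7 CPM. As the late cluster has no sum on day 4, cluster and day are mixed in these means. Within the same library the late cluster was lower than the Vwc2l cluster in Jun, Jund and Egr1, and higher in Fos, in 6 of 6 libraries, and its Fos level remained under every fibroblast-like sum. In the macrophage-like class the largest cluster (Fcrls, Pf4, Cd5l) had 163 CPM of Fos and 90.4 CPM of Atf3, the cluster led by cell cycle genes such as Cep55 had 118 and 108 CPM, and a cluster led by Siglech, a gene of plasmacytoid dendritic cells and microglia, had 73.9 and 27.7 CPM. Among fibroblast-like clusters mean Fos ran from 27.4 to 69.9 CPM. Mean Jun ran more widely, from 63.5 CPM to 276 CPM, the last in a cluster led by Prph, Sv2b and Wnt4, of which Prph and Sv2b are genes of neurons. The next, at 261 CPM, was a cluster with 3217 cells from Per2-/- day 10 and at most 45 from any other library. Values for clusters are descriptions.

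**Figure D3:**
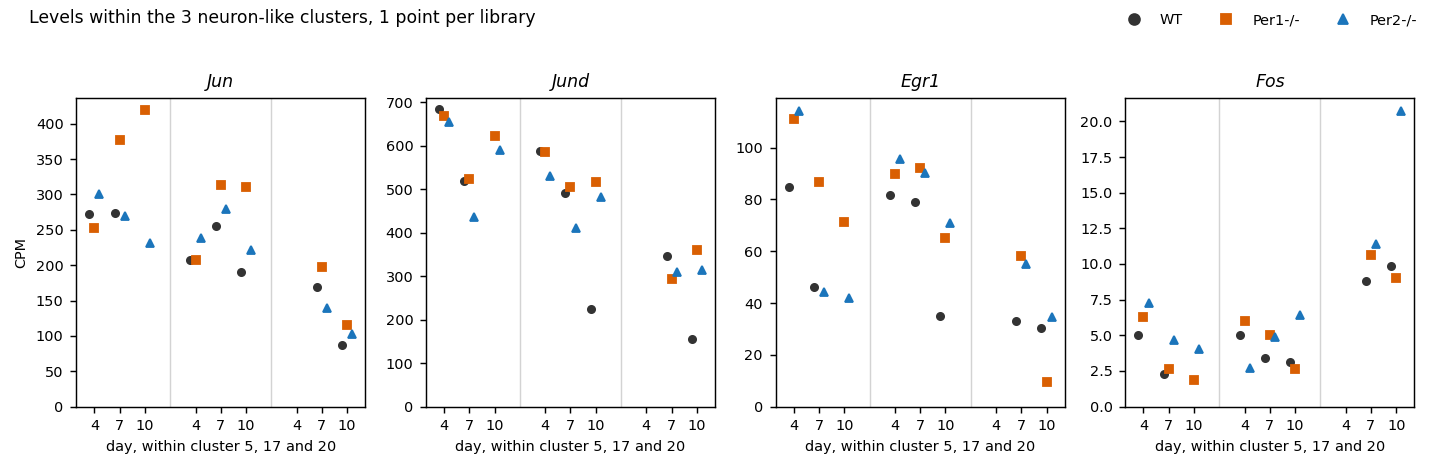
Levels of Jun, Jund, Egr1 and Fos (CPM) in the 3 clusters of the neuron-like class by day, with 1 point for each library. On days 7 and 10 Jun, Jund and Egr1 are lower and Fos is higher in the late cluster led by Snhg11, Caly and Stmn3 than in the Vwc2l cluster of the same library.

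Per cell, the classes differed in how many cells held a UMI at equal depth. Each cell was thinned to 3000 UMI, and the median share over the 9 libraries is given with the unthinned share after it. Fos was found in 27.7% (68.5%) of macrophage-like, 12.5% (40.9%) of fibroblast-like and 1.55% (5.34%) of neuron-like cells. For Jund the shares were 30.5% (81.9%), 43.8% (93.2%) and 70.3% (93.4%). Free RNA can give UMI in cells that do not express a gene. C1qb, a complement gene of macrophages, was found in 99.2% of macrophage-like cells but also in 2.58% (8.61%) of neuron-like and 1.85% (13.4%) of fibroblast-like cells, and the collagen gene Col1a1 was found in 98.4% of fibroblast-like cells but also in 22% of macrophage-like and 33.5% of neuron-like cells. The thinned shares of Fos, Fosb (0.231%), Fosl1 (0.077%), Fosl2 (1.35%) and Atf3 (0.924%) in neuron-like cells and of Fosl1 (0.13%) and Atf3 (0.764%) in fibroblast-like cells were under that of C1qb, and all thinned shares in neuron-like cells except those of Jun (41.6%) and Jund were under that of Col1a1, as were those of Fosb (3.82%), Fosl1 (0%), Fosl2 (2.61%), Atf3 (18.7%), Ier2 (16.6%) and Egr1 (21.6%) in macrophage-like cells, so no expression is read from these shares alone. Both reference genes were found in nearly all cells of their own class, unlike the members, and how much of a member's own level is free RNA was not tested. The median depth was 8613 to 16130 UMI in neuron-like, 16906 to 30822 in fibroblast-like and 18363 to 35605 in macrophage-like cells.

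At the same depth some of these genes were more frequent in single cells with Fos than in those without, and others were not. Of fibroblast-like cells with Fos, 41.4% also had Junb against 26.3% of those without Fos (medians over libraries), and the share was higher with Fos in 9 of 9 libraries. The same held for Fosb (9.57% and 4.31%), Egr1 (46.8% and 32.6%) and Ier2 (29.2% and 19.6%), each in 9 of 9 libraries. Jun was found in 23.3% of cells with Fos and 21.3% of those without (higher with Fos in 9 of 9), Jund in 43.1% and 43.9% (5 of 9) and Fosl2 in 6.13% and 6.68% (4 of 9). Around Jun other genes stood out. Jund was found in 49.6% of fibroblast-like cells with Jun and 42.4% without, and Fosl2 in 8.13% and 6.33%, each higher with Jun in 9 of 9 libraries, whereas Junb was found in 28.2% and 28.2% (7 of 9) and Ier2 in 20.5% and 20.7% (3 of 9). In macrophage-like cells Fosb (6.85% and 2.74%, 9 of 9), Junb (39.9% and 27.6%, 8 of 9), Ier2 (22.9% and 13%, 9 of 9), Egr1 (28.8% and 19.5%, 8 of 9) and Jun (38.9% and 32%, 7 of 9) were more frequent in cells with Fos, and Atf3 was found in 15.9% of cells with Fos and 19.9% of cells without, higher with Fos in 2 of 9. With Jun, Ier2 was found in 18.2% of them and without Jun in 15.7% (9 of 9), and Junb in 30.9% and 33.1% (2 of 9). In neuron-like cells only 4 libraries had enough cells with Fos, and in 4 of 4 Egr1 (36% and 14.2%) and Ier2 (19.5% and 9.84%) were more frequent with Fos. Jun, Junb, Jund and Atf3 were more frequent with Fos in 3 of 4, Fosl2 in 1 of 4, and Fosb and Fosl1 in 0 of 4. The median share of Fos in neuron-like cells was under that of C1qb, as given above. The part of free RNA or remaining doublets in this pairing was not tested. Cells share a library and a culture, so these shares carry no test. The clusters of a class were pooled here, and the part of differences between clusters in these pairs was not tested.

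Levels across days of reprogramming were compared within each class with the genotypes as repeats, so that the spread is that between 3 cultures of different genotype. In neuron-like cells Jund was 655, 644 and 620 CPM on day 4 (WT, Per1-/-, Per2-/-), 471, 480 and 375 CPM on day 7 and 187, 451 and 389 CPM on day 10. All values of days 7 and 10 were below day 4, and WT day 10 was lowest. The log2 difference of day 10 from day 4 was -0.86 ± 0.23 (edgeR, 14347 genes tested, adjusted p = 0.0108) and did not pass without WT day 4. Jun was 254, 241 and 283 CPM on day 4, 244, 328 and 219 CPM on day 7 and 138, 227 and 152 CPM on day 10. It was lower on day 10 than on day 4 in each genotype, by -0.56 ± 0.15 (edgeR, adjusted p = 0.0131), and the call was lost without WT day 4, Per2-/- day 4, WT day 10 or Per2-/- day 10.

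Egr1 fell most firmly in neuron-like cells. It was 84, 109 and 109 CPM on day 4, 57.2, 84.1 and 64.1 CPM on day 7 and 35.2, 38 and 47.7 CPM on day 10. Day 10 lay below both earlier days without overlap, at -1.22 ± 0.13 from day 4 (edgeR, adjusted p = 2.4e-05), and the difference of day 7, -0.58 ± 0.12, passed as well (adjusted p = 0.00701), though not without Per2-/- day 7. Junb was 24.4, 22.2 and 21.6 CPM on day 4, 14.1, 12.3 and 14.1 CPM on day 7 and 14.3, 10.5 and 16.6 CPM on day 10, with log2 differences of -0.78 ± 0.14 (edgeR, adjusted p = 0.00298) and -0.62 ± 0.15 (adjusted p = 0.00525). Ier2 had 38.4, 38 and 40.9 CPM on day 4 and 19.6 to 30.1 CPM later, below day 4 without overlap (-0.50 ± 0.12 on day 7, edgeR, adjusted p = 0.0152, lost without WT day 4 or Per2-/- day 7, and -0.52 ± 0.13 on day 10, adjusted p = 0.00661). Fos was 5.01, 6.41 and 6.04 CPM on day 4, 4.08, 4.64 and 7.49 CPM on day 7 and 6.78, 5.74 and 14.8 CPM on day 10. The days overlapped, and its rise on day 10 of 0.68 ± 0.25 (edgeR, adjusted p = 0.0453) did not pass in 7 of 9 fits that each left out 1 library, nor with DESeq2. Atf3 was 2.99, 3.14 and 5.21 CPM on day 4 and 6.25, 14.5 and 6.32 CPM on day 7, higher without overlap (1.14 ± 0.34, edgeR, adjusted p = 0.0383), a call lost without WT day 4, Per1-/- day 4, WT day 7 or Per1-/- day 7.

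On day 7, then, 4 of the 9 members tested passed in neuron-like cells (Fosl1 was too low to be tested), where 20% of all genes did, and on day 10, 6 of 9, where 44.1% did. The clusters moved with the day, as the early cluster had 971 to 1414 cells in a library of day 4 and 19 to 64 on day 10. In the Vwc2l cluster taken alone, Egr1 fell on day 10 (-0.54, edgeR, adjusted p = 0.024), and Jund (-0.42), Ier2 (-0.16), Fos (0.05), Jun (0.21) and Junb (0.13) did not pass, the last 2 with the sign turned. On day 7 Atf3 rose in this cluster (1.83, edgeR, adjusted p = 0.00988), and Egr1 (-0.02), Junb (-0.08) and Ier2 (-0.19) did not pass. This restriction was chosen after seeing the data.

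**Figure D4:**
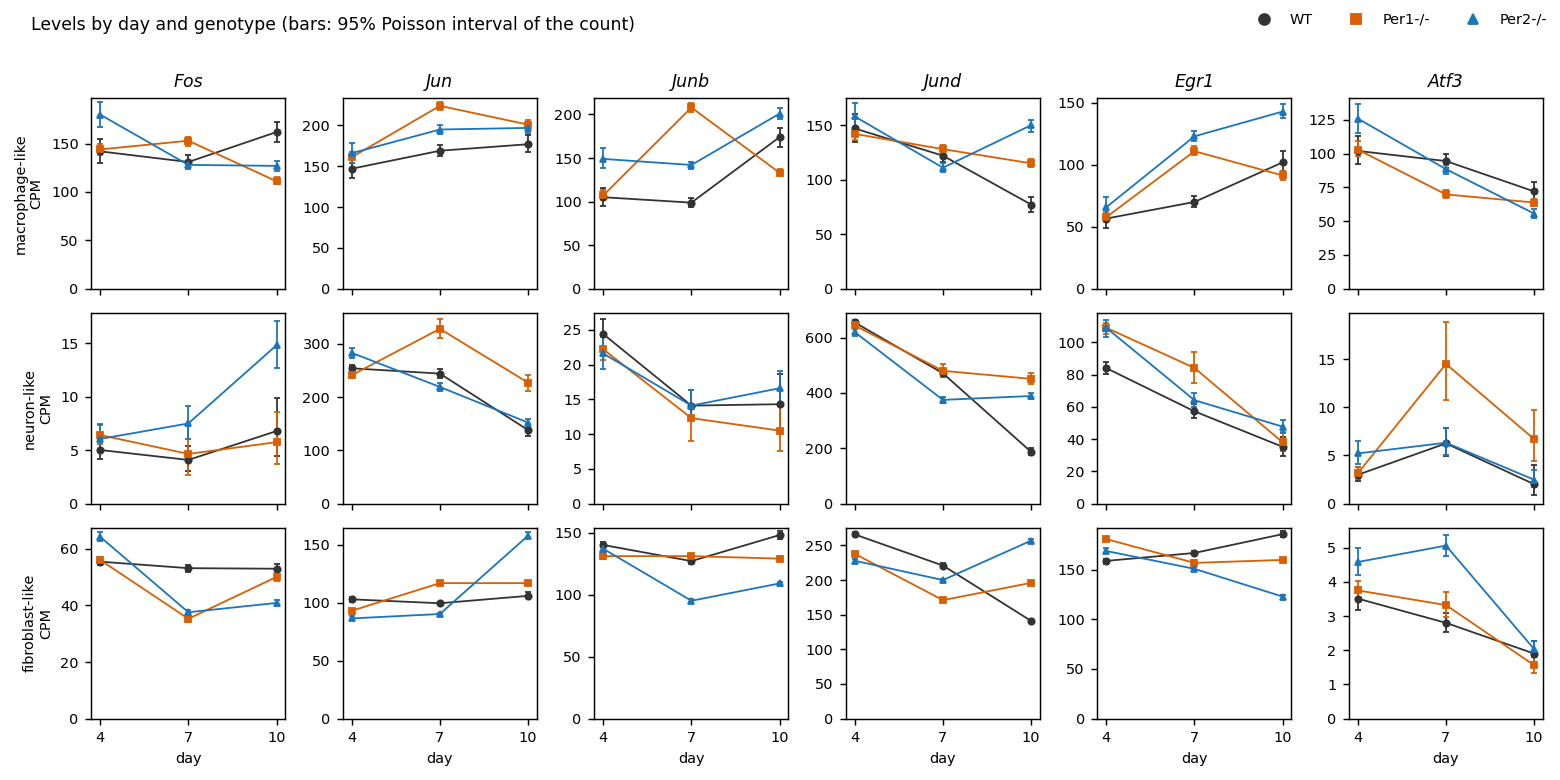
Levels of Fos, Jun, Junb, Jund, Egr1 and Atf3 (CPM) on days 4, 7 and 10 in 3 classes of cells (macrophage-like, neuron-like, fibroblast-like), 1 line for each genotype, with bars of the 95% Poisson interval, which covers counting error only. Egr1 falls with the day in neuron-like cells and is higher on days 7 and 10 than on day 4 in macrophage-like cells, and Atf3 is lowest on day 10 in fibroblast-like cells.

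In macrophage-like cells Egr1 moved the other way. It was 56.6, 57.7 and 65.7 CPM on day 4 (WT, Per1-/-, Per2-/-), 70, 111 and 123 CPM on day 7 and 102, 91.4 and 143 CPM on day 10. Every later value lay above day 4, and the rise on day 10 of 0.94 ± 0.16 passed (edgeR, 12836 genes tested, adjusted p = 0.0103). Atf3 was 102, 103 and 126 CPM on day 4, 94.5, 69.8 and 88.5 CPM on day 7 and 72, 63.8 and 55.6 CPM on day 10. It fell by day 10 without overlap (-0.74 ± 0.13, edgeR, adjusted p = 0.0118). Thus 2 of the 9 members tested passed on day 10, where 16.2% of genes did, and 0 of 9 on day 7 in edgeR, where 0.405% did (4 members at an unadjusted p under 0.05, as 20.3% of genes, and 1 with DESeq2, as 4.09% of genes). Within the largest macrophage-like cluster alone the differences on day 10 were 1.10 for Egr1 and -0.64 for Atf3.

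In fibroblast-like cells 2 of 10 members passed on day 10, where 17.9% of genes did. Atf3 was 3.51, 3.75 and 4.58 CPM on day 4, 2.8, 3.32 and 5.06 CPM on day 7 and 1.9, 1.56 and 2.03 CPM on day 10, the last below all earlier values (-1.15 ± 0.16, edgeR, 17346 genes tested, adjusted p = 0.00522). Its median thinned share in this class, 0.764%, was under that of C1qb (1.85%). The part of free RNA in this fall was not tested. Fosl1 was 1.38, 1.04 and 1.26 CPM on day 4, 0.446, 0.881 and 0.225 CPM on day 7 and 0.335, 0.352 and 0.144 CPM on day 10, below day 4 without overlap (-2.34 ± 0.44, edgeR, adjusted p = 0.0131), a call lost without Per1-/- day 10 or Per2-/- day 10. Jun was 103, 93.1 and 86.5 CPM on day 4 and 106, 117 and 158 CPM on day 10 and did not pass. The make-up of this class changed with the day, as the cluster led by Steap4 had 72 to 79 cells in a library of day 4 and 393 to 3493 on day 10, and its pericyte or smooth muscle markers summed to 742 to 956 CPM on day 4 and 207 to 430 CPM on day 10. Their part was not tested. On day 7, 0 of 10 passed in edgeR, where 1.65% of genes did (4 at an unadjusted p under 0.05, as 19.9% of genes, and 2 with DESeq2, as 8.45% of genes). The heat shock list, which like the immediate early genes can move with the handling of cells, summed in fibroblast-like cells to 5098 to 5401 CPM on day 4 and 4146 to 4272 CPM on day 10, in macrophage-like cells to 4609 to 4741 and 3590 to 4142 CPM, and in neuron-like cells to 6111 to 6594 and 6410 to 6546 CPM. Its part in the differences between days was not tested.

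Whether a change with the day differed between classes was tested directly, with an interaction term. Against fibroblast-like cells, 1 of 10 members passed on day 7 in macrophage-like cells (2.01% of all genes did) and 2 of 10 on day 10 (9.14%), Egr1 on both days and Junb on day 10, each with the higher log2 change in macrophage-like cells. In neuron-like cells 3 of 10 passed on day 7 (17.3%), none of them with DESeq2, and 7 of 10 on day 10 (33.1%), of which Egr1, Jun, Ier2, Jund and Junb had the lower effect in neuron-like cells on day 10, and Fos and Fosb the higher.

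Genotypes were compared with the days as repeats, which asks whether the loss of Per1 or Per2, both repressors of the circadian clock, goes with other levels of these genes. The targeted genes were not lower in these 3′ counts: over whole libraries Per1 was 9.14 to 10.3 CPM in Per1-/- against 6.34 to 7.89 CPM in WT, and Per2 was 4.97 to 6.39 CPM in Per2-/- against 2.57 to 3.15 CPM in the other genotypes. Counts at the 3′ end do not check a deletion elsewhere in the gene. Xist was at 0.0674 and 0.0594 CPM in Per1-/- on days 7 and 10 and at 347 to 996 CPM in the other libraries, so the sex of the pooled embryos moves with those libraries, and its part was not tested. No call was made in 84 tests of a member in a class and pair of genotypes with edgeR (0 of 84). Of all genes 0.0234% passed between Per1-/- and WT and 0.00779% between Per1-/- and Per2-/- in macrophage-like cells, 0.00697% between Per1-/- and WT in neuron-like cells and 0% in the other 6 comparisons. At an unadjusted p under 0.05 there were 15 of 84, where 9.52% of all gene tests lay. DESeq2 made 2 calls, in comparisons where it called 1.85% (Per2-/- against WT, macrophage-like cells) and 3.13% of genes (Per1-/- against Per2-/-, fibroblast-like cells).

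The values nearest to a call were those of Egr1 and Fosl2. Egr1 in macrophage-like cells averaged 111 CPM in Per2-/- and 76.3 CPM in WT over the 3 days (log2 difference 0.59 ± 0.16, edgeR, adjusted p = 0.189, and 0.58 with DESeq2, adjusted p = 0.04995, just under the threshold). The ratio of Per2-/- to WT was 1.16 on day 4 (95% interval 0.968 to 1.39, counting error only), 1.76 on day 7 (1.64 to 1.89) and 1.40 on day 10 (1.28 to 1.52). Fosl2 in fibroblast-like cells was 29, 24.8 and 23.4 CPM in WT, 25.1, 30.2 and 23.1 CPM in Per1-/- and 20.5, 17.2 and 16.5 CPM in Per2-/- on days 4, 7 and 10. Per2-/- lay below WT on each day, at ratios of 0.709, 0.693 and 0.707, and below every sum of the other genotypes. The clusters inside the class moved with the genotype: 2908 cells of Per2-/- day 7 were in a cluster led by Adamts3, 3217 of Per2-/- day 10 in one led by Pcolce2 and 3493 of Per1-/- day 10 in one led by Steap4. The part of these clusters in the Fosl2 difference was not tested. The difference of Per1-/- from Per2-/- was 0.53 ± 0.12 (edgeR, adjusted p = 0.261, and 0.52 with DESeq2, adjusted p = 0.0171). Fos in neuron-like cells averaged 9.44 CPM in Per2-/- and 5.29 CPM in WT (0.79 ± 0.25, edgeR, adjusted p = 0.626), with 14.8 CPM on day 10 as the highest value. Junb in macrophage-like cells was 105, 98.8 and 174 CPM in WT and 149, 142 and 201 CPM in Per2-/-, higher on each day at ratios of 1.42, 1.43 and 1.16, and Ier2 at ratios of 1.25, 1.18 and 1.15. Both stayed uncalled. In Per1-/- the library of day 7 was the highest of the class for Junb (208 CPM) and Fosb (31.6 CPM), 2.11 and 3.03 times WT of that day, while on day 10 the ratios were 0.767 and 0.915. With 1 library for each genotype and day, no test within a day was possible.

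Other genes of the pathway were read from lists of its members, in comparisons where 79.1% (neuron-like against fibroblast-like cells) and 82.7% of all genes (macrophage-like against fibroblast-like cells) were called, so that the counts of calls below carry little beyond their directions. Of 12 other AP-1 and related zipper genes tested, 2 were higher and 8 lower in neuron-like than fibroblast-like cells (median log2 difference -1.06, against -0.05 over all genes), for example Maf, a large zipper factor, at -3.31. In macrophage-like cells 8 were higher and 4 lower (median 1.42, against -0.21 over all genes), with Batf, a zipper protein of immune cells, at 6.0 and Maf at 4.03. Of 27 other immediate early genes, 4 were higher and 19 lower in neuron-like cells (median -1.04), with Cyr61 at -5.43 and Klf4 at -5.06, and 6 were higher and 13 lower in macrophage-like cells (median -0.38). Of 18 genes known as AP-1 targets, 1 was higher and 15 were lower in neuron-like cells (median -3.61), among them the matrix protease gene Mmp3 (-5.87) and the protease inhibitor gene Timp1 (-5.56). Fibroblasts are known for several of these genes. In macrophage-like cells the AP-1 target list summed to 1890 to 3972 CPM, against 265 to 627 CPM in fibroblast-like cells. Such a sum is weighted to its most abundant genes. Within macrophage-like cells alone, 11 of the 19 genes of this list had counts high enough to be tested between genotypes. The sum therefore does not describe the list as a whole. The 12 neuronal activity genes had 7 higher and 4 lower in neuron-like cells (median 1.20), led by the secreted peptide precursors Vgf (6.59) and Scg2 (4.0). This list shares some genes with that of the other immediate early genes, Arc among them.

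The regulators of the pathway were mixed, with the same shares of all genes called (79.1% and 82.7%) and the same medians over all genes (-0.05 and -0.21). Of 19 feedback inhibitors, which silence the signal or its messages, 5 were higher and 12 lower in neuron-like than fibroblast-like cells (median -0.91), with the RNA-decay factors Zfp36l1 at -5.41 and Zfp36l2 at -3.91. In macrophage-like cells 9 were higher and 7 lower (median 0.07), the phosphatases Dusp2 (5.03) and Dusp6 (4.42) on one side and Spry1 (-4.38) on the other. Of 24 upstream receptors, kinases and factors, 12 were higher and 11 lower in neuron-like cells (median 0.14), the neuronal JUN kinase Mapk10 at 3.93 and the FGF receptor Fgfr1 at -4.0, and in macrophage-like cells Fgfr1 was at -4.71. All of these values passed in edgeR.

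Across days, 10 of 27 other immediate early genes were lower and 2 higher on day 10 than on day 4 in neuron-like cells (median -0.22), a share like the 44.1% of all genes called there, with Arc at -2.22 and Btg2 at -1.98 among them. Srf, the factor that drives many of these genes through the serum response element, was at -2.73 in neuron-like cells (3.1 against 21.8 CPM), -1.58 in fibroblast-like and -1.16 in macrophage-like cells (edgeR, adjusted p = 4.71e-07, 7.52e-05 and 0.00249). Day 10 also had another software version and gene table, and their part in this fall of Srf was not tested. Neuronal activity genes had 6 higher and 3 lower of 11 in neuron-like cells (median 0.44, 44.1% of all genes called), with Vgf at 2.85 and Scg2 at 2.60. Arc, at -2.22, belongs to this list as well and is among the 3 lower genes. In fibroblast-like cells 7 of 18 AP-1 targets were lower and 0 higher (median -0.83), among them Ptgs2 at -2.48, and 7 of 14 heat shock genes were lower and 0 higher (median -0.34), where 17.9% of all genes were called. The neuronal gene Scg2 was higher in fibroblast-like cells on day 10 (14.6 against 1.3 CPM, 3.71). It also rose in neuron-like cells, and the part of free RNA in the fibroblast-like value was not tested. Some fibroblast-like clusters were led by genes of neurons, and Scg2 is not given by cluster here. In macrophage-like cells 4 of 25 immediate early genes were higher and 1 lower (median 0.26), near the 16.2% of all genes called, including Egr2, the relative of Egr1, at 1.25.

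The patterns over libraries were not shared by all members. Over the 27 sums of 3 classes and 9 libraries, with each class mean subtracted, the genes most like Jund among 11896 were Paxbp1 (Pearson's r 0.91), Kdm1a (0.89) and Suds3 (0.88), those most like Jun were Lcmt2 (0.81), Nupr1l (0.79) and Junos (0.78), and those most like Fos were Sgo1 (0.69), Pigu (0.68) and Alg9 (0.67). Junos is the antisense neighbour of Jun, and reads from overlapping neighbours can be hard to assign. Fos and Jun had an r of -0.58 with each other. The sums share libraries, depth and handling, and these are descriptions over sums that are not independent.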

How the data were processed

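Messenger RNA was measured with 10x Chromium 3′ v3.1 chemistry in 9 libraries, 1 per genotype and day, grouped by the sample labels. The deposited values are UMI counts per gene and barcode, whole numbers that the authors made on mm10 with Cell Ranger 4.0.0 (days 4 and 7, 31053 genes) or 6.0.0 (day 10, 32285 genes) per the file headers, whereas the submitters' processing notes name version 7.1. Of 95603 barcodes, 81999 passed the limits of the study's methods (3000 UMI or more, 20% mitochondrial UMI or less), and 7164 likely doublets by Scrublet score were left out (0.8% per 1000 barcodes). Analysis kept to the 30406 gene identifiers found in both gene tables (597 of them under different symbols). Clustering with scanpy 1.11.5 and leidenalg 0.10.2 (resolution 1) with 150 genes, the members, the lists and mitochondrial genes, kept out gave 27 clusters, named from marker lists.

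UMI were summed per library and class (at least 20 cells). Sums were tested with edgeR 4.0.16 in R 4.3.3 (quasi-likelihood, TMM, filterByExpr, Benjamini-Hochberg over all genes tested, threshold 0.05), with day as a term for genotypes, genotype for days and the library as a block for classes. A test of genotypes or days rests on the spread between libraries that differ in the other factor, and nothing in the labels says whether they came from separate preparations. In Per1-/- Xist was 488 CPM on day 4 and 0.0674 and 0.0594 CPM on days 7 and 10. The sex of its pooled embryos thus differed between these days, and its part in the tests of days was not tested. DESeq2 1.42.0, other size factors, filters and single libraries left out were alternatives. The tests were also run on simulated sums with known changes, and the outcome is not given here. Intervals of ratios and shares cover counting error only. Correlations used log2 of CPM plus 1. The members and lists were chosen with earlier results of these data known. All members are named, and of each list at most the 3 genes with the largest change per comparison.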

Additional observations from a re-analysis of the deposited data

Results flagged for a closer look

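The change between days differed between classes for several members, as tested with an interaction term in edgeR over the sums of a pair of classes. Relative to fibroblast-like cells, the log2 change from day 4 was higher in macrophage-like cells for Egr1 on day 7 (difference of log2 changes 0.97, edgeR, adjusted p = 0.0459) and on day 10 (1.20, adjusted p = 0.00903), and for Junb on day 10 (0.75, adjusted p = 0.0446), where 2.01% (day 7) and 9.14% (day 10) of all genes passed in edgeR.

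In neuron-like relative to fibroblast-like cells the difference on day 10 was negative for Egr1 (-1.06, edgeR, adjusted p = 0.000863), Jun (-0.97, adjusted p = 0.00399), Ier2 (-0.61, adjusted p = 0.00532), Jund (-0.58, adjusted p = 0.00599) and Junb (-0.51, adjusted p = 0.0488). It was positive for Fosb (1.17, edgeR, adjusted p = 0.027) and Fos (1.07, adjusted p = 0.0233). With 33.1% of all genes passing, a share of the members past the threshold says little beyond their directions. On day 7 Junb (-0.55, edgeR, adjusted p = 0.0469), Egr1 (-0.52, adjusted p = 0.0447) and Fosl1 (3.98, adjusted p = 0.00189) passed, where 17.3% of genes did, and none of the 3 passed with DESeq2 (adjusted p = 0.0790 for Junb and 0.0816 for Egr1, none given for Fosl1). DESeq2 also did not call Junb on day 10 in both comparisons and Fosb on day 10 in neuron-like cells, and it called Fosb on day 10 in macrophage-like cells (1.27, adjusted p = 0.0462). The value of Fosl1 rests on 8, 3 and 8 UMI in the neuron-like sums of day 7 (WT, Per1-/-, Per2-/-) and 2, 2 and 4 UMI on day 4.

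Without the library of WT on day 10, 6 of these 13 differences still passed: Egr1 on day 10 in macrophage-like cells, Fosl1 on day 7, and Jun, Jund, Egr1 and Ier2 on day 10 in neuron-like cells. The neuron-like clusters also changed with the day. In the Vwc2l cluster alone, as given above, Egr1 fell and passed on day 10. There Jund, Ier2, Fos, Jun and Junb did not pass, and Jun and Junb had the opposite sign. The interaction was not run within a cluster, so the part of the clusters in these differences was not tested.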

How the results depend on the processing

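Over 867 alternative values for single members that passed, 775 kept direction and call, 89 kept direction only and 3 reversed. The reversed values were those of Jun (0.21) and Junb (0.13) in neuron-like cells on day 10 when 1 cluster of the class was taken alone, and of Jun between neuron-like and macrophage-like cells on library totals (0.34). Counts of calls between classes were 27 and ranged from 23 to 27 over the alternatives. Between days 14 calls were made, 8 with 1 cluster of the class alone (chosen after seeing the data), and 9 to 14 with single libraries left out, 9 without WT day 4. Between genotypes 0 calls became 2 with DESeq2 and 2 with no filter on low counts, and 0 to 1 with single libraries left out (1 without Per1-/- day 4 and 1 without Per2-/- day 4). Differences in effect between classes were 13, but 8 with DESeq2, 8 with RLE size factors, 8 at a lower limit of 6000 UMI and 7 without WT day 10, alternatives chosen after seeing the data. At Leiden resolution 2 the neuron-like means were 14 CPM for Fos (6.78 at resolution 1), 3.19 for Fosb (0.882), 7.34 for Fosl2 (5.75), 34.8 for Junb (16.7) and 41.5 for Ier2 (30.8), and 85 of 90 alternative levels moved by less than the spread between libraries. At resolution 2 the neuron-like class included a mixed cluster with fibroblast markers, as given above. The causes of these shifts were not tested.

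Shares of cells with a UMI moved with depth. Without thinning and at 6000 UMI they were, for the macrophage-like, the neuron-like and then the fibroblast-like class, 68.5%, 5.34% and 40.9% and then 46%, 3.05% and 20.4% for Fos, 81.9%, 93.4% and 93.2% and then 47.9%, 85.9% and 66.1% for Jund, and 52.3%, 3.62% and 5.12% and then 29%, 2.2% and 1.52% for Atf3. No paired analysis was possible because the labels give no replicate numbers, beyond the terms for day, genotype or library that the tests already hold. Fosl1, and Fosb and Atf3 in neuron-like cells, rest on few UMI. With 1 library per genotype and day, a library and its condition cannot be told apart within a day.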

Other observations

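Schwann-like cells, which were not tested between days, held the highest Jun, Fosl2 and Atf3 levels or came close to them, and their values by day differed between members. On days 4, 7 and 10 (WT, Per1-/-, Per2-/- in turn) Fosb was 11.2, 9.79 and 13.7 CPM, 19, 15.8 and 16.8 CPM, and 35.7, 50.7 and 56.6 CPM, so that the 3 days did not overlap. Egr1 was 46.8, 56.1 and 62.6 CPM on day 4, 76.8, 64.6 and 93.5 CPM on day 7 and 137, 141 and 188 CPM on day 10, again without overlap. Ier2 was 56.1 to 65.3 CPM on day 4 and 105 to 161 CPM on day 10. Atf3 lay the other way, at 175, 168 and 258 CPM on day 4 and 98.2, 71.7 and 25 CPM on day 10, and Fosl1 was 2.92, 3.39 and 7.68 CPM on day 4 and 0.655, 0.749 and 0.0825 CPM on day 10. Jun ran from 417 to 561 CPM with no such order. What share of all genes separates by day in this class was not tested, so these values are descriptions of the members alone.

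Fosl1 was highest in an unnamed cluster led by Angptl7, 2200002D01Rik and Serpinb9b, at a mean of 15.1 CPM over 7 libraries (11.2 to 22.6 CPM), against 2.41 CPM in the highest fibroblast-like cluster, which was led by Il1rn, Cst6 and Pitx1.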
